A study of Homo sapiens with 6 samples.

Results

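Cholesterol synthesis and its control by the SREBP transcription factors were examined through 8 genes, chosen by name: HMGCS1, MVD, IDI1, FDPS and SQLE, which encode enzymes of the pathway, and INSIG1, SREBF1 and SREBF2, which encode its regulators. All 8 were among the 15832 genes with a deposited value, and all 8 had a mean of at least 1 TPM (a length-scaled share of the transcripts in a library) and were tested. The cells were AsPC-1, an established human pancreatic cancer line, transfected for 48 h with an siRNA against VCPIP1 (siVCPIP1, 3 libraries) or with a control siRNA (siControl, 3 libraries). Both groups shared the line, the transfection and the time. The sources used here give neither the siRNA sequences nor the dose and culture medium. They also do not say if replicate libraries are separate cultures, so p-values here reflect only the variation among these libraries, which could be technical.

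Cells make cholesterol from acetyl-CoA through mevalonate, which is turned into isoprenoid units and then, past the branch point at farnesyl diphosphate, into squalene and sterols. When sterols in the membrane of the endoplasmic reticulum are low, SCAP escorts the SREBP precursors to the Golgi, where the proteases S1P and S2P release the active factor. INSIG proteins hold SCAP in the endoplasmic reticulum when sterols are high. SREBP-2, the product of SREBF2, mainly drives genes of cholesterol synthesis and uptake, while SREBP-1, from SREBF1, mainly drives those of fatty acid synthesis. INSIG1 and SREBF2 itself are known SREBP targets.

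The reference promoter of SREBF2 is shown because it alone, among the members' promoter windows searched, matched TCACNCCAC, a form of the sterol regulatory element. SREBP binds this element, and other forms of it were not searched for. The SREBF2 window covers chr22:41832855-41833154 on the plus strand (RefSeq, GRCh38.p14), from 250 bases before the transcription start to 50 after it, with the match in capitals.
SREBF2 promoter: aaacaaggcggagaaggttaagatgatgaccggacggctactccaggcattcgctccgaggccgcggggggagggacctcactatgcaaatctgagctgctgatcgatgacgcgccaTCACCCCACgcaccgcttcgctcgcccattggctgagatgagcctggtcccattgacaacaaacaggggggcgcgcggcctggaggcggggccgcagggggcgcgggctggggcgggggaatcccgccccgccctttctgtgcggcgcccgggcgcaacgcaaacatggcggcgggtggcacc
The motif searched was TCACNCCAC on both strands. It began 133 bases before the start in SREBF2, and was in 1.13% of all 35116 promoter windows of this length. Windows were found for 7 of the 8 members, 10 windows in all, and 1 of them held the motif. The other motifs searched were CCAAT, bound by NF-Y, which was in 34.6% of all windows, and GGGCGG, bound by SP1, which was in 44.95% of all windows and in 67.2% of the windows of genes tested. On either strand CCAAT occurred 3 times in the MVD window and 3 times in the FDPS window. It occurred 3, 2 and 0 times in the IDI1 windows and 0 and 2 times in the HMGCS1 windows. The INSIG1 and SREBF2 windows held 1 each, and that of SREBF1 held 0. GGGCGG was in all 10 windows. A match is a stretch of letters and was not measured as a binding site.

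The transcripts of the members also differed in base composition, which matters here because the change in TPM followed GC content over all genes. The last 90 coding bases of 4 enzymes of the mevalonate pathway, ending at the stop codon, are shown with G and C in capitals (GENCODE 29, GRCh38). The first pair fell and the second pair rose in siVCPIP1.
HMGCS1, chr5:43291131-43291220, minus strand: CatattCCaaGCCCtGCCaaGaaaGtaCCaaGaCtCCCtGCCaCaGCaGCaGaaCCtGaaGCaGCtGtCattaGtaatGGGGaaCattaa
IDI1, chr10:1041187-1041276, minus strand: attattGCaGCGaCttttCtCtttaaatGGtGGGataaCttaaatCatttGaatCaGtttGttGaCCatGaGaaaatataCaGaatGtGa
FDPS, chr1:155320520-155320609, plus strand: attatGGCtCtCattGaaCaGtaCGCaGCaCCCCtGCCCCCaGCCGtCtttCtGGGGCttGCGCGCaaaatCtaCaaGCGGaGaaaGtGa
MVD, chr16:88652525-88653308, minus strand, across an intron: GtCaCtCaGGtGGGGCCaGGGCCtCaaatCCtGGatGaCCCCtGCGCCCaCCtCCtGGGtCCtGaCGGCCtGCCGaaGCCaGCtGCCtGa
G and C made up 47.8% of these bases in HMGCS1, 31.1% in IDI1, 54.4% in FDPS and 67.8% in MVD. Over the whole transcript the shares were 40.2% in HMGCS1, 39.8% in IDI1, 55.1% in FDPS and 65.6% in MVD. SQLE had 46.5%, INSIG1 46.0%, SREBF1 64.7% and SREBF2 58.1%.

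Both groups differed across the transcriptome as a whole. Over all genes, the median was 1.24 to 2.26 TPM in siVCPIP1 and 6.18 to 7.44 TPM in siControl. Transcripts with a GC content under 45% held 3.90% to 6.12% of TPM in siVCPIP1 and 13.2% to 15.4% in siControl. VCPIP1, the targeted gene, had 0.11 to 0.27 TPM in siVCPIP1 and 2.24 to 3.06 TPM in siControl. Replicate 3 of siVCPIP1, with the median of 2.26 TPM, stood nearer to siControl than the other two, and results that rest on it are given with and without it. The epithelial keratins KRT8, KRT18 and KRT19 were at 3909 to 8924 TPM in every library, and all 8 markers of ductal and epithelial cells had a mean of at least 1 TPM. Their summed level was 20938 to 23742 TPM in siVCPIP1 and 13864 to 15985 TPM in siControl, nearly all KRT8, KRT18 and KRT19. EPCAM and CDH1, surface markers of epithelial cells, were at 2.99 to 11.7 TPM and 0.28 to 1.33 TPM in siVCPIP1, against 157.3 to 196.2 TPM and 27.5 to 31.7 TPM in siControl. MUC1 was at 14.71 to 23.55 TPM in siVCPIP1 and 51.93 to 61.88 TPM in siControl. CEACAM6 was at 0.24 to 0.41 TPM in siVCPIP1 and 1.95 to 3.09 TPM in siControl. KRT7 was higher in siVCPIP1, at 5.2 to 7.89 TPM, against 2.13 to 3.12 TPM in siControl. Of 6 fibroblast markers 5 were listed, and their sum of 1.5 to 4.51 TPM in siVCPIP1 and 45.3 to 69.0 TPM in siControl was nearly all LUM, while COL1A1 and COL1A2 stayed at 1.05 TPM or less. Of 5 leukocyte markers 3 were listed, with a sum of 121.9 to 159.1 TPM in siVCPIP1 and 144.4 to 150.1 TPM in siControl, nearly all CD68, and PTPRC stayed at 0.66 TPM or less. The endothelial, acinar and endocrine, and hepatocyte markers each summed to 1.30 TPM or less in every library.

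The 8 genes did not move together. In siVCPIP1, 6 fell (SQLE, IDI1, HMGCS1, INSIG1, SREBF2 and SREBF1) and MVD and FDPS rose (limma on log2(TPM + 1), adjusted p under 0.05 over all 10966 genes tested). Of all genes tested 66.0% were called lower and 15.0% higher, so that 6 of 8 lower is near the background. The median log2 fold change was -1.45 over the 8 genes and -1.12 over all genes tested. The libraries of the 2 groups did not overlap for 7 of the 8, SREBF1 being the exception: 5 lay lower and 2 higher in siVCPIP1, against 67.9% and 18.2% of all genes tested. TPM is a share of the transcripts in a library, so a lower TPM can come with less of that transcript or more of others, and in bulk RNA fewer cells of a type and less RNA per cell cannot be told apart.

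**Figure D1:**
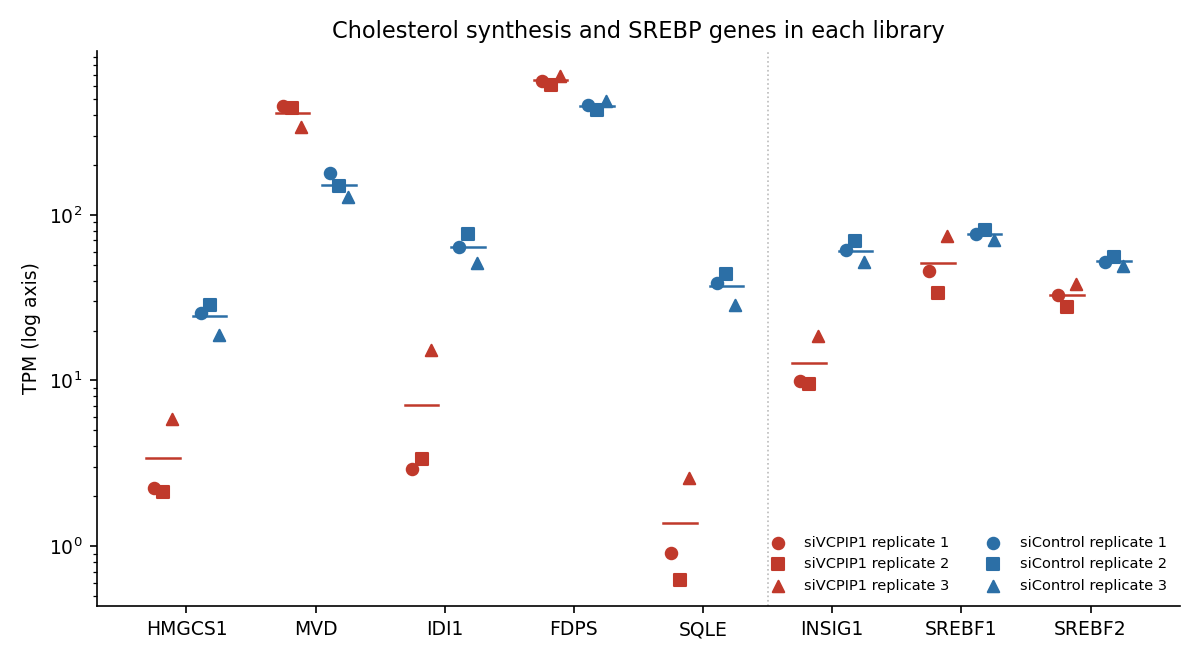
TPM (log axis) of the 8 genes in each library, siVCPIP1 in red and siControl in blue, with 1 symbol per replicate number and a line at the mean of 3 libraries. Enzymes stand left of the dotted line in pathway order and regulators right of it. SQLE lies at 0.62 to 2.59 TPM in siVCPIP1 and 28.6 to 43.6 TPM in siControl, while MVD lies higher in every siVCPIP1 library than in any siControl library.

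HMGCS1, the cytosolic synthase that makes HMG-CoA, a precursor of mevalonate, had 2.23, 2.13 and 5.87 TPM in siVCPIP1, against 25.5, 28.6 and 18.9 TPM in siControl. Every siVCPIP1 library lay below every siControl library, and replicate 3 was the highest of siVCPIP1. The log2 fold change was -2.60 (SE 0.33, limma, adjusted p = 8.9e-05), and the siVCPIP1 mean was 14.01% of the siControl mean. The HMGCS1 locus spans 43289395 to 43313512 of chromosome 5 (minus strand), with 11 exons in a transcript of 3506 nt, and 1 antisense gene overlaps it. Its transcript was in the tenth of genes with a GC content of 39.3% to 42.0%, which had a median log2 fold change of -2.18 and in which 98.1% of genes were called lower. After each library's trend on GC content and length was removed, the HMGCS1 change was -0.31 and was no longer called (limma, adjusted p = 0.107).

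MVD, the mevalonate diphosphate decarboxylase that makes isopentenyl diphosphate, had 456.3, 441.3 and 338.8 TPM in siVCPIP1, against 177.8, 149.0 and 128.7 TPM in siControl. All siVCPIP1 libraries were above all siControl libraries, and replicate 3, the highest of siVCPIP1 for 7 members, was the lowest for MVD. The log2 fold change was 1.43 (SE 0.17, limma, adjusted p = 6.1e-05), at percentile 99.4 of all genes tested, and the siVCPIP1 mean was 271.5% of the siControl mean. MVD spans 88651935 to 88663161 of chromosome 16 (minus strand), with 10 exons in a transcript of 1823 nt. It was in the tenth of genes with the highest GC content, from 62.9%, in which the median was 0.47 and 55.2% of genes were called higher. With the GC and length trend removed it was still higher, by 0.93 (limma, adjusted p = 0.000225).

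IDI1, which interconverts isopentenyl diphosphate, the product of MVD, and dimethylallyl diphosphate, had 2.93, 3.34 and 15.2 TPM in siVCPIP1, against 63.96, 76.5 and 51.1 TPM in siControl. Replicate 3 of siVCPIP1 stood apart from the other two but still below all of siControl. The log2 fold change was -3.30 (SE 0.49, limma, adjusted p = 0.000238), and -3.95 without that library. Removal of the GC and length trend left it at -0.86 (limma, adjusted p = 0.0333), and at -0.45 with a pseudocount of 0.1 TPM, a setting added after the data were seen, where it was not called (adjusted p = 0.183). IDI1 spans 1039152 to 1049170 of chromosome 10 (minus strand) and is overlapped by the antisense gene IDI2-AS1. No source used here gives the strand setting of the authors' counting, so reads of the pair could not be separated.

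MVD and IDI1 thus encode successive steps and changed in opposite directions. A ratio of both genes within a library is free of any factor that scales the whole library, but not of a GC trend. It was 155.7, 132.1 and 22.3 TPM of MVD per TPM of IDI1 in siVCPIP1, against 2.78, 1.95 and 2.52 in siControl. The siVCPIP1 ratios spread widely and all lay above those of siControl. This pair was chosen after its values were seen, so the ratio is a description with no test.

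FDPS, farnesyl diphosphate synthase, which joins the isoprenoid units and is the target of bisphosphonate drugs, was the most abundant of the 8 in both groups. It had 645.3, 609.1 and 689.0 TPM in siVCPIP1, against 457.3, 426.4 and 485.4 TPM in siControl. The groups did not overlap, and the log2 fold change was 0.50 (SE 0.11, limma, adjusted p = 0.00285). It was still higher with the GC and length trend removed, by 0.79 (limma, adjusted p = 0.000263), in a GC range of 53.7% to 56.8% where the median of all genes was -0.44 and 16.9% were called higher. FDPS spans 155308748 to 155320666 of chromosome 1 (plus strand). The annotation names 8 FDPS pseudogenes, processed copies elsewhere in the genome, so its reads may be split with them or include theirs, and its value is uncertain to that extent.

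SQLE, squalene epoxidase, a rate-limiting enzyme of the sterol branch, fell the furthest of the 8. It had 0.91, 0.62 and 2.59 TPM in siVCPIP1, against 38.9, 43.6 and 28.6 TPM in siControl. The siVCPIP1 mean was 3.71% of the siControl mean, and no siVCPIP1 library came near the siControl range. The log2 fold change was -4.07 (SE 0.32, limma, adjusted p = 2.0e-05), and 71 of the 10966 genes tested lay lower. On log2(TPM + 1) a gene with a low siControl level cannot fall this far, so ranks on this scale depend partly on level. SQLE was in the tenth of genes with a GC content of 44.5% to 47.4%, in which the median was -1.79, 93.7% were called lower and 5% of genes lay below -3.46. Removal of the GC and length trend left it at -2.21 (limma, adjusted p = 6.1e-05), or at -2.60 where the pseudocount was 0.1 TPM (adjusted p = 0.00017). It spans 124998497 to 125022283 of chromosome 8 (plus strand), with 11 exons, and no annotated gene overlaps it.

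INSIG1, which retains SCAP in the endoplasmic reticulum, had 9.91, 9.50 and 18.6 TPM in siVCPIP1, against 61.0, 69.4 and 52.1 TPM in siControl. Replicate 3 was again the highest of siVCPIP1, and the groups did not overlap. The log2 fold change was -2.23 (SE 0.26, limma, adjusted p = 5.6e-05). The tenth of genes with like GC content, which is that of SQLE, had a median of -1.79. Removal of the GC and length trend left INSIG1 at -0.31 (limma, adjusted p = 0.0453). Where the pseudocount was 0.1 TPM as well, it lay at 0.043 and was not called (adjusted p = 0.742). INSIG1 spans 155297776 to 155310235 of chromosome 7 (plus strand).

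SREBF2, which encodes SREBP-2, had 32.8, 27.7 and 38.0 TPM in siVCPIP1, against 52.2, 55.5 and 49.4 TPM in siControl, with no overlap. Its log2 fold change was -0.67 (SE 0.16, limma, adjusted p = 0.00409). The median was -1.12 over all genes and -0.11 in the tenth of genes with a GC content of 56.8% to 59.6%, which holds SREBF2 and in which 36.8% of genes were called lower. The direction for SREBF2 depended on the scaling: in limma, SREBF2 was at 0.54 after median-of-ratios scaling (adjusted p = 0.00742), at 0.03 after quantile normalization (adjusted p = 0.851) and at -0.005 with the GC and length trend removed (adjusted p = 0.965). It spans 41833079 to 41907308 of chromosome 22 (plus strand), hosts MIR33A and overlaps SREBF2-AS1 on the other strand.

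SREBF1, which encodes SREBP-1, had 45.97, 33.95 and 74.3 TPM in siVCPIP1, against 76.7, 81.1 and 70.7 TPM in siControl. Replicate 3 of siVCPIP1 lay inside the siControl range and the other two well below it, so the groups overlapped. The log2 fold change was -0.63 (SE 0.26, limma, adjusted p = 0.0462), and this call was lost when any library other than replicate 3 of siVCPIP1 was left out (adjusted p = 0.0765 to 0.161). Without that replicate the change was -0.93 (adjusted p = 2.3e-06). In the tenth of genes with the highest GC content, which holds SREBF1, the median was 0.47 and 13.1% were called lower. The call was also lost with a pseudocount of 0.1 TPM (adjusted p = 0.0559). In limma, SREBF1 was at 0.58 after median-of-ratios scaling (adjusted p = 0.0105), at -0.09 after quantile normalization (adjusted p = 0.636) and at -0.62 with the GC and length trend removed (adjusted p = 0.0255). It spans 17810399 to 17837002 of chromosome 17 (minus strand), hosts MIR33B and MIR6777, and overlaps RAI1 on the other strand. The deposited value covers the gene, so its SREBP-1a and SREBP-1c transcripts were not separated.

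Set against each other within a library, SREBF1 minus SREBF2 on the log2(TPM + 1) scale was 0.48, 0.28 and 0.95 in siVCPIP1, against 0.55, 0.54 and 0.51 in siControl. The siVCPIP1 libraries lay on both sides of the siControl values. The difference between the groups was 0.04 (two-sided exact permutation p = 1, where 3 libraries against 3 can go no lower than 0.1). It was -0.15 without replicate 3 of siVCPIP1. Such a difference is not free of a GC trend, and the transcripts have a GC content of 64.7% for SREBF1 and 58.1% for SREBF2. With the GC and length trend removed, SREBF1 was at -0.62 and SREBF2 at -0.005.

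The order of the levels differed between the groups. In siVCPIP1 the mean TPM ran from FDPS (647.8 ± 40.0, SD, n = 3) through MVD (412.1 ± 64.0), SREBF1 (51.4 ± 20.7), SREBF2 (32.8 ± 5.17), INSIG1 (12.7 ± 5.15), IDI1 (7.15 ± 6.96) and HMGCS1 (3.41 ± 2.13) to SQLE (1.37 ± 1.06). In siControl it ran from FDPS (456.4 ± 29.5) through MVD (151.8 ± 24.7), SREBF1 (76.2 ± 5.24), IDI1 (63.9 ± 12.7), INSIG1 (60.8 ± 8.65), SREBF2 (52.4 ± 3.03) and SQLE (37.0 ± 7.66) to HMGCS1 (24.3 ± 4.98). The ranges of neighbours overlapped for SREBF1 and SREBF2 and from INSIG1 down to SQLE in siVCPIP1, and from SREBF1 down to SREBF2 and for SQLE and HMGCS1 in siControl. FDPS and MVD together held 92.1%, 93.2% and 86.9% of the 8 genes' summed TPM in siVCPIP1, against 66.6%, 61.9% and 69.4% in siControl. The other 6 genes summed to 94.7, 77.2 and 154.6 TPM in siVCPIP1, against 318.3, 354.7 and 270.8 TPM in siControl.

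The other enzymes of the pathway, from lists of known members, were set against the 66.0% of all genes called lower and 15.0% called higher. Of 4 other mevalonate and isoprenoid enzymes, GGPS1 and ACAT2 fell and MVK and PMVK rose. GGPS1, which makes geranylgeranyl diphosphate, and the thiolase ACAT2 had log2 fold changes of -1.80 and -1.43. With the GC and length trend removed, GGPS1 was higher, by 0.57 (limma, adjusted p = 0.00225), and ACAT2 was at -0.04 and not called (adjusted p = 0.791). The kinases MVK and PMVK, which act on mevalonate and phosphomevalonate, rose by 1.01 and 0.58. MVK, PMVK and MVD, which act one after another, were thus all higher on the deposited TPM. Their transcripts have a GC content of 59.4%, 59.5% and 65.6%. In the tenth of genes by GC content that holds MVK and PMVK, 25.5% were called higher, and 55.2% in that of MVD. These genes were not set out as a run beforehand, and the run was not tested. Removal of the GC and length trend left MVK at 1.15 and PMVK at 0.25 (limma, adjusted p = 0.000145 and 0.046). PMVK lost its call where the pseudocount was 0.1 TPM as well (0.24, limma, adjusted p = 0.0517), while MVK kept it (1.22).

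**Figure D2:**
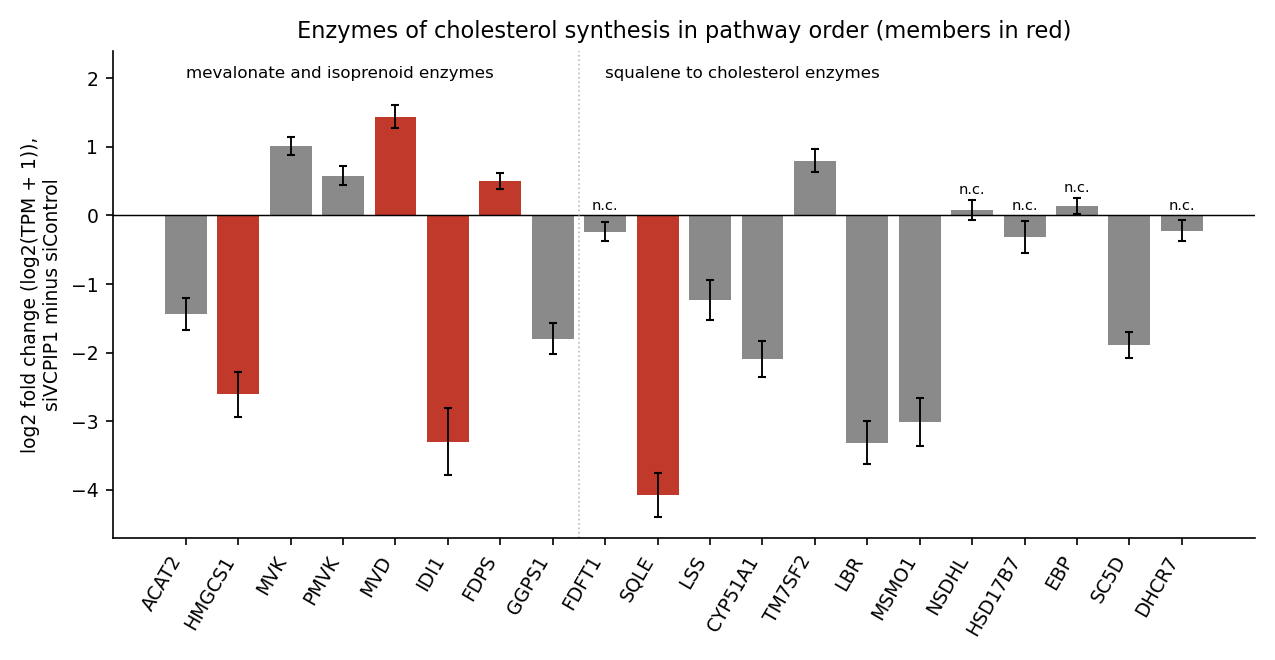
Log2 fold change of siVCPIP1 minus siControl on log2(TPM + 1), with its SE, for 20 enzymes in pathway order, the 5 members in red. "n.c." marks genes that were not called. HMGCS1 (-2.60), IDI1 (-3.30) and SQLE (-4.07) point down, and MVD (1.43) and FDPS (0.50) point up.

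Of 11 other enzymes of the sterol branch, LBR, MSMO1, CYP51A1, SC5D and LSS fell, TM7SF2 rose, and FDFT1, HSD17B7, DHCR7, NSDHL and EBP were not called. That is 45.5% lower, against 66.0% of all genes. LBR, a sterol reductase that is also the lamin B receptor, averaged 3.89 ± 2.46 TPM in siVCPIP1 and 44.1 ± 5.45 TPM in siControl (SD, n = 3 each). MSMO1, a methylsterol oxidase, averaged 12.2 ± 7.93 and CYP51A1, the sterol demethylase, 11.7 ± 5.16 TPM in siVCPIP1, against 94.2 ± 7.15 and 50.7 ± 2.75 TPM in siControl. SC5D, a sterol desaturase, averaged 0.287 ± 0.228 TPM in siVCPIP1 and 3.77 ± 0.838 TPM in siControl, but was higher, by 0.54, with the GC and length trend removed (limma, adjusted p = 0.00608). LSS, which closes the sterol rings, had a log2 fold change of -1.24. After median-of-ratios scaling it was at -0.07 and was not called (limma, adjusted p = 0.732), nor was it after quantile normalization (adjusted p = 0.38). CYP51A1 was at 0.19 with the GC and length trend removed and was not called (adjusted p = 0.175). TM7SF2, a sterol reductase with the same activity as LBR, rose by 0.80. FDFT1, squalene synthase, was not called (219.4 ± 28.2 TPM in siVCPIP1 and 258.3 ± 23.6 TPM in siControl, limma, adjusted p = 0.137), but it was called lower without replicate 3 of siVCPIP1 (-0.34, adjusted p = 0.0112), and it was called higher after median-of-ratios scaling (0.99, adjusted p = 0.000407) and with the GC and length trend removed (0.74, adjusted p = 0.00046). HSD17B7, NSDHL and EBP were also called higher with that trend removed, by 1.33, 1.31 and 0.80. HSD17B7 and DHCR7 were called lower without replicate 3 of siVCPIP1 (-0.55 and -0.36, limma, adjusted p = 0.00113 and 0.00859).

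Of 8 further genes of SREBP processing and of the turnover of its regulators, 7 fell and SCAP rose. SCAP averaged 55.7 ± 6.23 TPM in siVCPIP1 and 38.0 ± 5.17 TPM in siControl, which is 0.54 on the log2 scale (SE 0.16, limma, adjusted p = 0.0128), a call lost without replicate 1 of siVCPIP1 (0.48, adjusted p = 0.0688). MBTPS1 and MBTPS2, which encode S1P and S2P, fell to 3.43 ± 2.56 and 0.37 ± 0.32 TPM in siVCPIP1, against 29.96 ± 4.20 and 6.40 ± 1.02 TPM in siControl. INSIG2, the paralog of INSIG1, averaged 0.71 ± 0.61 TPM in siVCPIP1 and 9.26 ± 0.44 TPM in siControl, and was not called with the GC and length trend removed (-0.14, limma, adjusted p = 0.295). Nor was MBTPS2 there (adjusted p = 0.0552). The ubiquitin ligases RNF139 and SYVN1 also fell, with log2 fold changes of -2.60 and -2.34. Over all genes tested 66.0% were lower.

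Of 10 genes of cholesterol uptake and transport, 9 fell and STARD3 was not called, against 66.0% of all genes lower. The lysosomal cholesterol exporter NPC1 and the sterol carrier STARD4 fell, with log2 fold changes of -2.72 and -2.41. With the GC and length trend removed STARD4 was at -0.16 and not called (limma, adjusted p = 0.34). Of 13 tested genes for fatty acid synthesis, which SREBP-1 is known to drive, 10 fell (76.9%), ELOVL1 rose and ACSS2 and FADS2 were not called, against 66.0% of all genes lower and 15.0% higher. The ELOVL1 call was lost without replicate 1 of siVCPIP1 (0.37, limma, adjusted p = 0.0562). ATP citrate lyase ACLY fell to 10.9 ± 6.02 TPM in siVCPIP1, against 79.6 ± 9.99 TPM in siControl, and the desaturase SCD had a log2 fold change of -1.89. With the GC and length trend removed SCD was at -0.25 and not called (limma, adjusted p = 0.0708). ACSL3, ME1 and ELOVL5 also fell, with log2 fold changes of -3.25, -2.82 and -2.60. Fatty acid synthase FASN fell by 0.74, but in limma after median-of-ratios scaling it was higher by 0.47 (adjusted p = 0.0248). Its call was lost after quantile normalization (adjusted p = 0.112), with the GC and length trend removed (-0.26, adjusted p = 0.179), and without replicate 1 or 2 of either group (-0.72 to -0.52, adjusted p = 0.0546 to 0.0692).

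Over the 7 lists, 62 genes other than the 8 were tested, and 45 of them fell (72.6%) and 8 rose (12.9%), against 66.0% and 15.0% of all genes tested. Their median log2 fold change was -1.75. The 8 that rose had a GC content of 55.4% to 63.0%, with a median of 60.3%. The 45 that fell had one of 34.0% to 65.3%, with a median of 47.1%. Among the members, those that rose had 55.1% and 65.6%, and those that fell 39.8% to 64.7%. SREBF1 and SREBF2, both richer in GC than FDPS, fell on the deposited TPM, but both were higher after median-of-ratios scaling. A role of GC content in these directions was not tested.

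**Figure D3:**
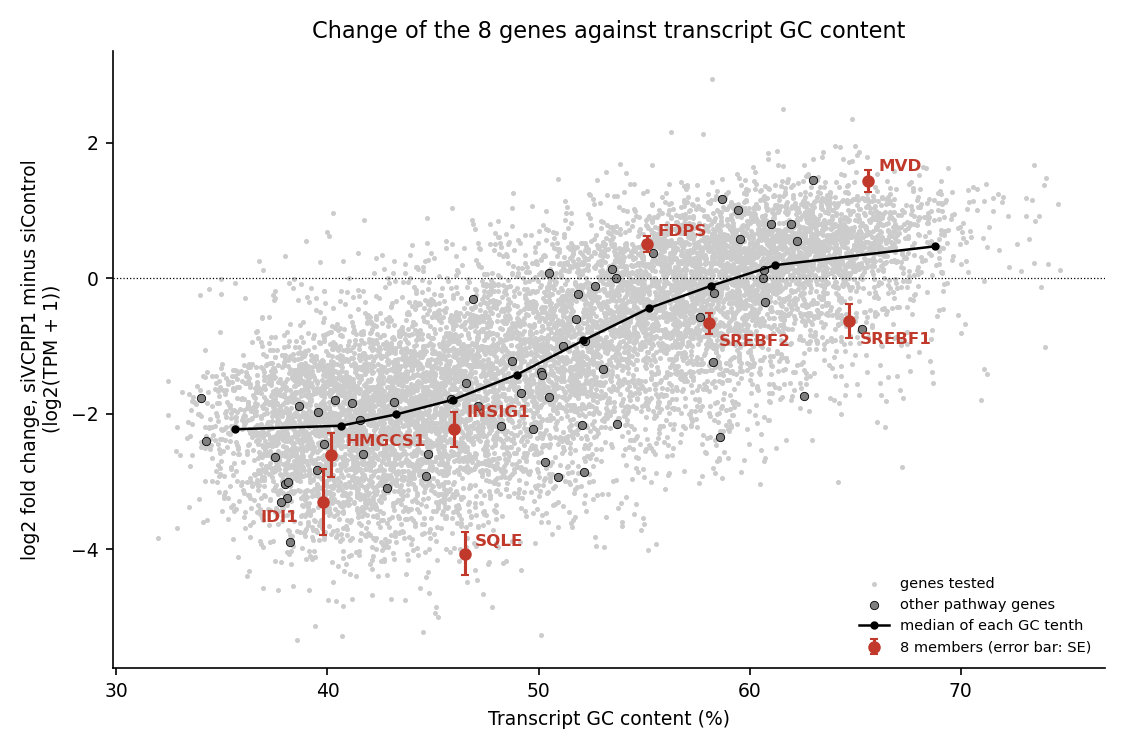
Log2 fold change of siVCPIP1 minus siControl on log2(TPM + 1) against transcript GC content, for the 10710 genes tested that have one (grey), 62 other pathway genes (outlined) and the 8 members (red, with SE). The black line joins the medians of 10 equal groups by GC content, which run from -2.23 to 0.47. SQLE (-4.07) and SREBF1 (-0.63) lie below the line, and MVD (1.43) and FDPS (0.50) above it.

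With the GC and length trend removed, 4 members were called lower (SQLE, IDI1, INSIG1 and SREBF1), where 31.5% of all genes were, and MVD and FDPS were called higher, where 37.8% were. With a pseudocount of 0.1 TPM as well, SQLE and SREBF1 were called lower and MVD and FDPS higher, against 31.2% and 36.9% of all genes. Median-of-ratios scaling gave 4 members lower (SQLE, IDI1, HMGCS1 and INSIG1) and 4 higher, against 45.1% and 40.3% of all genes. Quantile normalization gave the same 4 lower and MVD and FDPS higher, against 38.8% and 42.2%. SQLE, MVD and FDPS kept their direction and call in each of 15 alternative treatments of the data, at -4.87 to -2.21 for SQLE, 0.90 to 2.66 for MVD and 0.43 to 1.73 for FDPS. The median of all genes moved to -0.14 after median-of-ratios scaling, 0.04 after quantile normalization and 0.07 after the GC and length correction, and the members' median to -0.26, -0.64 and -0.31.

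**Figure D4:**
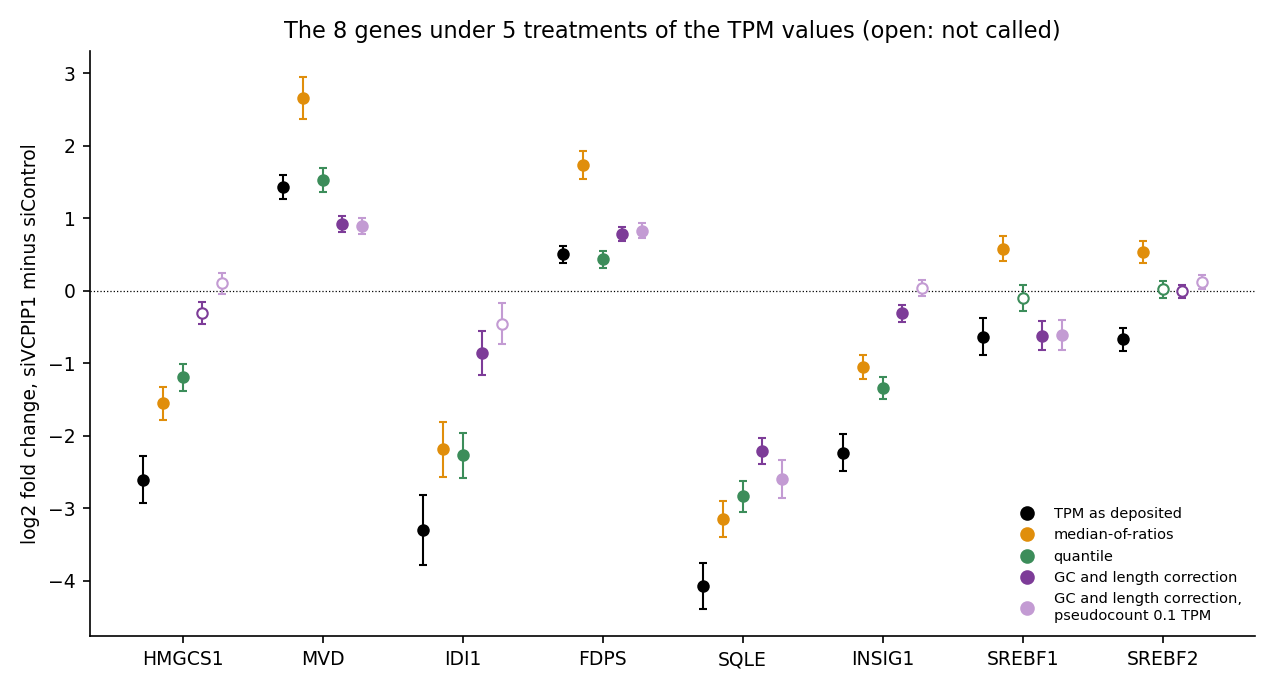
Log2 fold change of siVCPIP1 minus siControl, with its SE, for the 8 genes under 5 treatments of the TPM values. Filled points were called (limma, adjusted p under 0.05) and open points were not. SQLE stays between -4.07 and -2.21, MVD and FDPS stay above 0, and SREBF1 and SREBF2 change sign after median-of-ratios scaling. SREBF2 is also above 0 after quantile normalization (0.025). Under the correction with a pseudocount of 0.1 TPM, SREBF2 (0.12), HMGCS1 (0.11) and INSIG1 (0.043) lie above 0.

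The genes most like SREBF2 over the 6 libraries, by the distance between log2(TPM + 1) values centred on each gene's mean, were NCKIPSD, CDAN1 and TNFSF9, at distances of 0.093, 0.105 and 0.110 among 7728 other genes whose mean reached 5 TPM. Those most like SQLE were CMTM6, TOP1 and BRIX1, at 0.143, 0.197 and 0.210. CMTM6 had 1.02, 0.95 and 3.07 TPM in siVCPIP1, against 42.8, 47.6 and 31.6 TPM in siControl, close to SQLE in every library.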

How the data were processed

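RNA-seq libraries were made from total RNA of AsPC-1 cells with MGISEQ-2000RS protocols, per the labels' protocols. The authors deposited 1 table with a TPM value for each gene symbol and library, per the file headers, and its values carry 2 decimals. The genome build was GRCh38.p13, per the submitters' processing notes. Of the aligner, counter, annotation, strand setting and filters, no source used here says anything. Read numbers cannot be recovered from TPM, so depth is unknown and no counting interval could be computed.

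Column names gave the samples. The 10966 genes whose mean reached 1 TPM were tested on log2(TPM + 1), a scale that understates the change of low genes, with limma 3.58.1 (R 4.3.3, eBayes, trend on, group as the only term, two-sided, Benjamini-Hochberg over all genes tested, threshold 0.05). No count test was used. GC content and length came from the protein-coding transcript with the longest coding sequence in GENCODE 29 (GRCh38), found for 97.7% of the genes tested. In the GC and length correction, each library's trend, fitted with natural splines (5 degrees of freedom for GC, 3 for log2 length, with interaction), was subtracted before the limma fit. The fits were also run on simulated data with independent noise in each gene and no shift of a single library. That check does not cover the departure of replicate 3 of siVCPIP1.

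The members, the 7 pathway lists and the tests were chosen with earlier results of these data known. The genes named are the members, up to 20 called pathway genes with the largest change among those over 5 TPM on average whose groups do not overlap, 7 fixed genes, the genes in a count of 5 or fewer, and the 3 nearest patterns. VCPIP1 and the marker genes are named as checks. Some pathway genes are not reported here and are left out of the lists' counts. STARD3, CD68 and LUM were named after their values were seen.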

Additional observations from a re-analysis of the deposited data

How the results depend on the processing

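Of the 8 genes, SQLE, MVD and FDPS kept direction and call in all 15 alternatives tried (pseudocount, filters, scalings, correction, trend, block and each library left out). SREBF1 lost its call in 10 and was called higher after median-of-ratios scaling. HMGCS1 lost its call under the GC and length correction with a pseudocount of 1 TPM or 0.1 TPM (limma, adjusted p = 0.107 and 0.533). SREBF2 lost its call under both corrections (limma, adjusted p = 0.965 and 0.299) and after quantile normalization (adjusted p = 0.851). It was called higher after median-of-ratios scaling. IDI1 and INSIG1 each lost their call in 1 (limma, adjusted p = 0.183 and 0.742). It was the GC and length correction with a pseudocount of 0.1 TPM, a setting added after the data were seen. That setting turned HMGCS1 (0.11), INSIG1 (0.043) and SREBF2 (0.12), and of the pathway genes MSMO1 (0.042), ELOVL5 (0.26), STARD4 (0.20), CYP51A1 (0.75), FDFT1 (0.88), SCD (0.21), GGPS1 (1.03), ACAT2 (0.20), HSD17B7 (1.55), DHCR7 (0.074), SOAT1 (0.11), ACSS2 (1.05) and DHDDS (1.15). The GC and length correction with a pseudocount of 1 TPM turned CYP51A1 (0.19), FDFT1 (0.74), GGPS1 (0.57), SC5D (0.54), HSD17B7 (1.33), DHCR7 (0.016), SOAT1 (0.073), ACSS2 (0.89) and DHDDS (0.96). Median-of-ratios scaling turned SREBF1 (0.58), SREBF2 (0.54), FDFT1 (0.99), FASN (0.47), HSD17B7 (0.85), DHCR7 (0.998), STARD3 (1.19), ACSS2 (1.21) and DHDDS (1.05), and quantile normalization turned SREBF2 (0.025), HSD17B7 (0.87), DHCR7 (0.069), STARD3 (0.93), ACSS2 (0.50) and DHDDS (1.10). Of these, HSD17B7, DHCR7, STARD3, ACSS2, DHDDS and FDFT1 were not called on the deposited TPM. The cause was not tested for any of these.

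Members called lower numbered 2 under the correction with a pseudocount of 0.1 TPM, and members called higher 4 after median-of-ratios scaling. Other pathway genes called lower numbered 24 under the correction and 22 with the lower pseudocount. Those called higher numbered 21 after median-of-ratios scaling, 17 after quantile normalization, 19 under the correction and 21 with the lower pseudocount. Over all genes, 4679 were called lower with a filter of a mean of at least 5 TPM, which tests fewer genes, 4258 after quantile normalization, 3376 under the correction and 3341 with the lower pseudocount. Those called higher numbered 4416 after median-of-ratios scaling, 4625 after quantile normalization, and 4052 and 3950 under the 2 corrections. Both scalings and the correction centre the libraries, so a more even balance follows from their construction.

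The difference in SREBF1 minus SREBF2 turned to -0.12 after quantile normalization, -0.61 under the correction and -0.73 with the lower pseudocount, and ranged from -0.15 to 0.18 with 1 library left out. With 1 library left out, NSDHL, STARD3 and ACSS2, none of them called, ranged from -0.021 to 0.15, -0.091 to 0.093 and -0.13 to 0.083, 5 to 6 members were lower and 2 higher, 41 to 48 other pathway genes were lower and 6 to 8 higher, and 6742 to 7772 of all genes were lower and 1245 to 1851 higher. Same-numbered libraries did not deviate together throughout (r = 0.53, -0.27 and 0.16 for numbers 1, 2 and 3). With 3 libraries per group, these values cannot decide whether the numbers pair the samples. With the replicate number as a block, 7085 genes were called lower and 1586 higher, 6 members lower and 2 higher, and the SREBF1 to SREBF2 difference was 0.04.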

Other observations

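Enzymes that use the isoprenoid products of the pathway mostly had lower TPM in siVCPIP1, with 9 of 11 tested genes lower, RABGGTA higher and DHDDS not called (limma, adjusted p under 0.05), against 66.0% of all genes lower. DHDDS was called higher, by 0.96 to 1.15, after both scalings and both corrections. RABGGTB, the beta subunit of the Rab geranylgeranyl transferase, averaged 5.94 ± 6.20 TPM in siVCPIP1 and 79.99 ± 10.4 TPM in siControl (SD, n = 3 each), while RABGGTA, the alpha subunit of the same enzyme, averaged 32.1 ± 1.07 TPM in siVCPIP1 and 18.03 ± 1.63 TPM in siControl. Their transcripts have a GC content of 38.2% and 61.0%. NUS1, a subunit of the dolichol-making prenyltransferase, and PDSS1 and COQ2, of coenzyme Q synthesis, fell, with log2 fold changes of -3.04, -2.92 and -2.19, and ICMT, which methylates prenylated proteins, had one of -2.22.

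Among 5 tested genes of the oxysterol response and efflux, both LXR genes rose and 3 genes fell, against 15.0% of all genes higher and 66.0% lower. NR1H2 averaged 146.9 ± 20.2 TPM in siVCPIP1 and 53.1 ± 6.21 TPM in siControl, and NR1H3 averaged 245.7 ± 16.3 TPM in siVCPIP1 and 109.1 ± 9.60 TPM in siControl. Their transcripts have a GC content of 63.0% and 58.7%. Of all genes with a GC content from 62.9%, 55.2% were called higher, and of those at 56.8% to 59.6%, 25.5% were. With the GC and length trend removed, NR1H2 and NR1H3 were still higher, by 1.09 and 1.07 (limma, adjusted p = 0.000171 and 0.000146). The sterol exporter ABCG1, the acyltransferase SOAT1, which esterifies cholesterol, and the lysosomal lipase LIPA fell, with log2 fold changes of -2.15, -1.98 and -3.10, but SOAT1 was at 0.07 and not called with the GC and length trend removed (limma, adjusted p = 0.554). ABCA1, the best known LXR target in efflux, had a mean of 0.498 TPM and was below the filter, as were CYP27A1, GPAM and FNTB, and CH25H was not analysed here.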
